A study of Mus musculus with 2 samples.

Results

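The genes described here are 8 epithelial genes of the liver: the keratins Krt7, Krt8, Krt18, Krt19 and Krt23 and the bile duct and progenitor genes Sox9, Epcam and Spp1. They were picked by name and are 8 of the 23283 gene rows of the authors' table. Each name matched 1 row, and every row had a usable status. RNA came from perfused livers of male C57Bl/6 mice aged 6 months. The library called the Alb-Cre library below holds livers labelled Akt1F/F;Akt2-/-;Alb-Cre. The library called the control library holds livers labelled Akt1F/F:Akt2-/-. By these labels both genotypes carry floxed Akt1 alleles and a homozygous Akt2 mutation, and the control livers are not wild type. Akt1 and Akt2 are kinases of the insulin pathway. Alb-Cre is a recombinase under the albumin promoter. That promoter is active in hepatocytes and, as background, also in the fetal hepatoblasts from which both hepatocytes and bile duct cells arise. Messenger RNA of 4 livers was pooled into each library, so there was 1 library per genotype and no replicate. No value below has an error between mice, no test was possible, and every difference describes these 2 libraries.

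Keratins build the intermediate filaments of epithelial cells, and each filament pairs a type I keratin with a type II keratin. Adult hepatocytes are known for Krt8 (type II) with Krt18 (type I), and bile duct cells add Krt7 (type II) and Krt19 (type I). Krt23 is a type I keratin known from the ductular reaction, the spread of duct-like cells in injured mouse liver. Sox9 is a transcription factor of bile duct cells, Epcam is an adhesion molecule of bile duct and progenitor cells, and Spp1 encodes osteopontin, a secreted phosphoprotein made by bile duct cells and by activated macrophages. Because whole liver was sequenced, more cells of a type and more RNA per cell cannot be told apart.

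Values are the authors' FPKM, read fragments scaled to transcript length and library size, and can be compared between genes because they are per length. Each ratio is the log2 of (Alb-Cre FPKM + 1) over (control FPKM + 1); the added 1 FPKM makes the ratio of a weak gene too small. A gene was measured with a status of OK and 1 FPKM or more in at least 1 library, and it was called at a ratio of 1 or more in size, which is 2-fold. Of 11406 measured genes, 428 (3.75%) were called higher in the Alb-Cre library and 209 (1.83%) lower, so 67.2% of the called genes were higher. With ratios centred on genes of 10 FPKM or more in both libraries, a shift of 0.13, these counts were 563 and 159, with 78.0% higher. Akt1, the floxed gene, had 17.1 FPKM in the Alb-Cre library and 23.7 FPKM in the control library, and Akt2 had 33.5 FPKM in the Alb-Cre library and 37.5 FPKM in the control library. Akt2 RNA was thus listed above Akt1 RNA in both libraries labelled Akt2-/-. The values are per whole gene and do not show which exons were read, so neither label could be checked, and the libraries are called by their labels. The sources used here give no read totals. The lowest values of genes with 1 transcript lay in steps, which put 1 FPKM in 1 kb at about 139 reads in the Alb-Cre library and 123 reads in the control library.

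Krt23 alone among the 8 genes differed strongly between the libraries, and Krt18 was higher without reaching 2-fold. The classical bile duct genes stayed under 2-fold on the plain scale, but not all lay close together. Krt19 and Krt7 were 1.61-fold and 1.58-fold higher in the Alb-Cre library, beside 1.70-fold for Krt18. Sox9 and Epcam stood at 0.73 and 0.72 of their control values. Of the 8 genes, 5 were measured. Among those 5, 1 was called higher, against 3.75% of all measured genes, and 0 were called lower, against 1.83%. The count of 1 describes that gene and not the group. The median ratio of the 5 measured genes was 0.01, beside -0.06 over all measured genes, and over all 8 genes it was 0.12. Without regard to size, 5 of the 8 genes had the higher value in the Alb-Cre library and 3 in the control library. The 3 genes that were not measured, Krt7, Krt19 and Epcam, lay between 0.577 and 0.830 FPKM in the Alb-Cre library and between 0.421 and 0.802 FPKM in the control library. Just inside the minimum was Sox9, at 1.21 FPKM in the Alb-Cre library and 1.66 FPKM in the control library; just outside were Krt19 and Epcam.

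**Figure D1:**
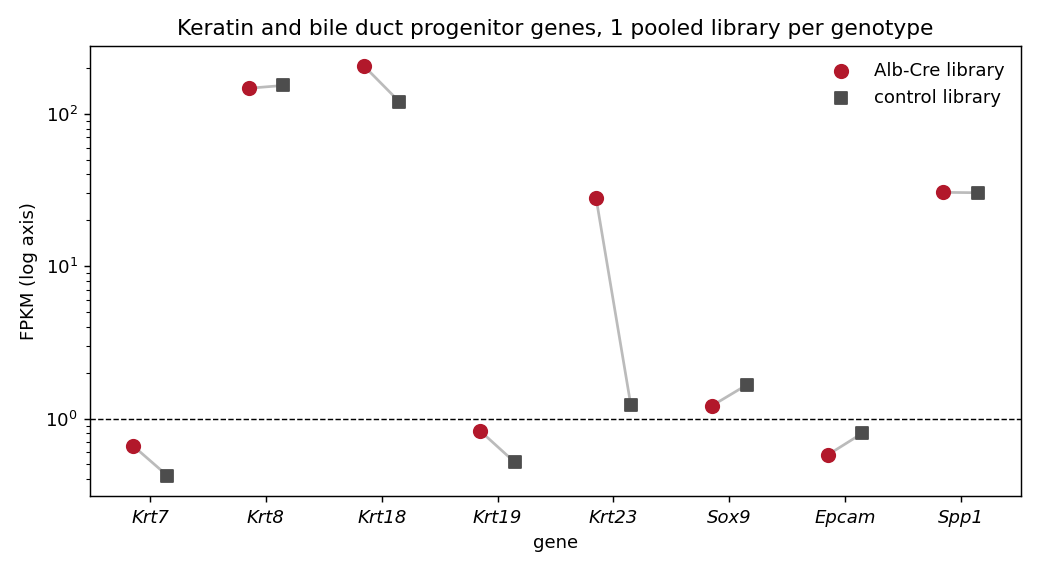
FPKM of the 8 genes on a log axis, with a circle for the Alb-Cre library and a square for the control library of each gene; the dashed line is the minimum of 1 FPKM and there are no error bars because each genotype is 1 pooled library. Krt23 stands at 28.1 FPKM in the Alb-Cre library and 1.23 FPKM in the control library, while the 2 values of Krt8 and of Spp1 nearly coincide.

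Krt23 lies on mm10 chromosome 11, from 99477973 to 99493110 on the minus strand. It had 28.1 FPKM in the Alb-Cre library and 1.23 FPKM in the control library. That is a plain 22.9-fold difference and a log2 ratio of 3.71 with 1 FPKM added, the 43rd highest among the 11406 measured genes. Only 0.368% of measured genes had a higher ratio. With a transcript of 1565 bases, these levels stand for about 6116 reads in the Alb-Cre library and 237 reads in the control library, so counting error is small beside the difference. In the authors' deposited table Krt23 was called different at a q-value of 0.0198, a call that 0.599% of rows with a status of OK had in the higher direction. For the other 7 genes the authors' deposited table gives no call and a q-value of 0.999 each. The q-values of the authors' deposited table compare 2 libraries, not genotypes.

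The 250 bases before the start site of Krt23 are shown with those of Krt8 and Krt18, since these 3 keratins carry the comparison. They are RefSeq sequences on GRCm38.p6, the assembly of mm10, written along the gene's strand (Krt23 chr11:99493121-99493370 minus, Krt8 chr15:102004343-102004592 minus, Krt18 chr15:102027966-102028215 plus). Capitals mark the letters of the motifs that were searched.
Krt23: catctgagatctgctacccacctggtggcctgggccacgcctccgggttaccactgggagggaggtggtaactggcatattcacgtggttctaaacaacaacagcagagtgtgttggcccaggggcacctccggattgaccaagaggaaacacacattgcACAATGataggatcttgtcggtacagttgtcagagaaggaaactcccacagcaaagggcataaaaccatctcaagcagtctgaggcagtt
Krt8: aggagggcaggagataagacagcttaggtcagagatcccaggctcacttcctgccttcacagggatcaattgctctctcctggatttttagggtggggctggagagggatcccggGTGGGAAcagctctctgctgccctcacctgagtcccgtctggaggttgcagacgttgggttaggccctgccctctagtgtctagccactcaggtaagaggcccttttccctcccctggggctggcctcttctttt
Krt18: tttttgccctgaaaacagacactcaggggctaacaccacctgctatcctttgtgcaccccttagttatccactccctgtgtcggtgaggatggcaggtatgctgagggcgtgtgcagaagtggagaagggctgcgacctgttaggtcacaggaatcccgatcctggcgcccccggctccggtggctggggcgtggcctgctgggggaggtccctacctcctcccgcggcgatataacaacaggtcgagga
Motifs were searched on both strands by exact letters, and no matches overlapped. Krt23 held 1 match to the SOX9 core motif ACAATG, at -90 to -85 from the start site, which 10.7% of all 32851 such windows also held. Krt8 held 1 match to the RBPJ motif GTGGGAA, the motif of the Notch effector, at -135 to -129, present in 5.42% of windows. Krt18 held none of the 6 motifs. RefSeq windows were matched for 6 of the 8 genes, and the FOXO motif GTAAACA was found in 0 of their 7 windows and in 3.17% of all windows. The TEAD motif GGAATG (12.6% of windows) and the AP-1 motif TGANTCA (6.75%) were also in none of the 7, and the SP1 motif GGGCGG (32.7%) was in those of Krt7 and Epcam. A match of letters is not a binding site, and a missing match says nothing of a factor.

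Krt23 sits in the type I keratin cluster, and none of its neighbours was measured. Within 100 kb the table has 11 other genes, all keratins or keratin-associated protein genes. The highest of them was Krt10, an epidermal keratin, with 0.742 FPKM in the Alb-Cre library and 0.856 FPKM in the control library. The intestinal keratin gene Krt20, next to Krt23, had 0.0441 FPKM in the Alb-Cre library and 0.00350 FPKM in the control library. The 3 measured genes nearest to Krt23 in log2(FPKM + 1), over only 2 libraries, were Enc1, Il1rn and Ly6d, at Euclidean distances of 0.37, 0.49 and 0.52. Enc1, which encodes an actin-binding kelch protein, had 21.7 FPKM in the Alb-Cre library and 1.14 FPKM in the control library. Il1rn, the interleukin-1 receptor antagonist gene, had 20.9 FPKM in the Alb-Cre library and 0.859 FPKM in the control library. Ly6d, the gene of a GPI-anchored surface protein, had 20.2 FPKM in the Alb-Cre library and 0.880 FPKM in the control library.

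The hepatocyte pair Krt8 and Krt18 differed from each other in how they compared between libraries. Krt8 (chromosome 15, 101996711 to 102004342, minus strand) had 147 FPKM in the Alb-Cre library and 153 FPKM in the control library, a log2 ratio of -0.06. The ratio was 0.07 with centring and 0.06 with libraries rescaled to the same sum, so no direction can be given for Krt8. Krt18 (chromosome 15, 102028216 to 102032026, plus strand) had 205 FPKM in the Alb-Cre library and 120 FPKM in the control library, a plain 1.70-fold difference and a log2 ratio of 0.76. Of all measured genes 6.14% had a higher ratio than Krt18, and it stayed under 2-fold with centred ratios (0.90). These levels stand for about 40836 Krt18 reads in the Alb-Cre library and 21332 in the control library. Krt18 was the higher of the pair in the Alb-Cre library, and Krt8 was the higher in the control library. The level of Krt18 over that of Krt8 was 1.39 in the Alb-Cre library and 0.785 in the control library. Such a ratio within a library does not depend on how the libraries are scaled. The start sites of both genes face away from each other with 23873 bases between them, and 0 other rows of the table lie in that interval. Of the other genes within 100 kb of Krt18, the 3 measured ones besides Krt8 had ratios from -0.15 for Eif4b, a translation initiation factor gene, to 0.30 for Spryd3. Processed copies can share reads with their parent gene: GENCODE lists 1 named Krt8 pseudogene, Krt8-ps on chromosome 7.

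Over the whole family, type I keratin transcripts outnumbered type II in the Alb-Cre library and not in the control library. The table holds 51 keratin rows, 28 of type I and 23 of type II. Only Krt8, Krt18 and Krt23 were measured, and 34 keratins were listed at 0 in both libraries. The 46 keratins outside the 8 genes reached at most 0.742 FPKM in the Alb-Cre library and 0.856 FPKM in the control library. Type I keratins summed to 234 FPKM in the Alb-Cre library and 123 FPKM in the control library, and type II keratins to 148 FPKM in the Alb-Cre library and 154 FPKM in the control library. Type I over type II was thus 1.58 in the Alb-Cre library and 0.799 in the control library. Of the type I sum, Krt23 made up 12.0% in the Alb-Cre library and 1.0% in the control library. In FPKM the Krt18 difference of 84.2 was larger than the Krt23 difference of 26.9. Krt8 and Krt18 together were 91.9% of all keratin FPKM in the Alb-Cre library and 98.8% in the control library.

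**Figure D2:**
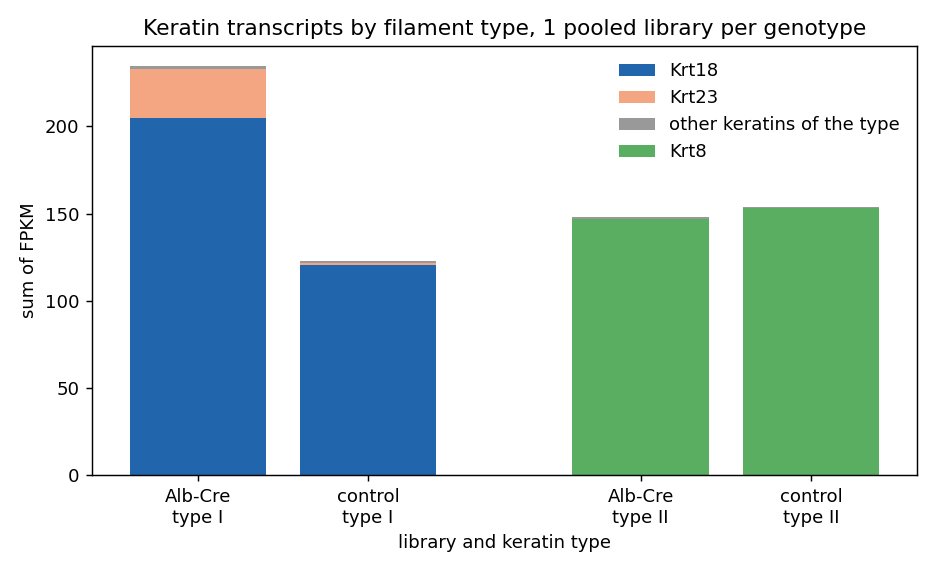
Sum of FPKM of all type I keratins (left pair of bars) and all type II keratins (right pair), with the Alb-Cre library left of the control library in each pair, split by gene and starting at 0. The type I bars reach 234 FPKM in the Alb-Cre library and 123 FPKM in the control library, while the type II bars reach 148 FPKM in the Alb-Cre library and 154 FPKM in the control library.

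The bile duct keratins were low in both libraries. Krt19 (chromosome 11, 100140811 to 100145919) had 0.830 FPKM in the Alb-Cre library and 0.515 FPKM in the control library, a plain 1.61-fold difference on about 182 reads in the Alb-Cre library and 100 reads in the control library. Krt7 (chromosome 15, 101412403 to 101427806) had 0.666 FPKM in the Alb-Cre library and 0.421 FPKM in the control library, a plain 1.58-fold difference. Both had the higher value in the Alb-Cre library but stayed under 2-fold on the plain scale, and with 1 FPKM added their log2 ratios were 0.27 for Krt19 and 0.23 for Krt7. Krt7 overlaps an annotated antisense gene, Gm671, and Krt8 overlaps a long non-coding gene on the other strand, Gm36026. Spp1 overlaps an annotated gene on its own strand, Gm42793, which counting by strand would not separate. No source used here says whether reads were counted by strand. Mesothelial cells cover the liver and also make keratins. Of 8 listed markers of these cells 7 had a row, and all 7 were higher in the Alb-Cre library. No share over all genes was computed for that direction. With 1 FPKM added none of the 7 was called. All were under 2 FPKM, where the added 1 FPKM makes the ratio too small, and only 3 of the 7 were measured. Their summed level was 5.25 FPKM in the Alb-Cre library and 1.95 FPKM in the control library, and the part of these cells in the Krt7 and Krt19 values was not tested.

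Sox9 and Epcam were lower in the Alb-Cre library by less than 2-fold, and Spp1 was nearly equal in both. Sox9 (chromosome 11, 112782210 to 112787757) had 1.21 FPKM in the Alb-Cre library and 1.66 FPKM in the control library, a log2 ratio of -0.27 on about 696 reads in the Alb-Cre library and 847 in the control library. Epcam (chromosome 17, 87635979 to 87651127) had 0.577 FPKM in the Alb-Cre library and 0.802 FPKM in the control library, a log2 ratio of -0.19. Both ratios kept their sign under every scaling tried, at -0.13 for Sox9 and -0.06 for Epcam with centred ratios. Spp1 (chromosome 5, 104435111 to 104441053) had 30.5 FPKM in the Alb-Cre library and 30.3 FPKM in the control library, a log2 ratio of 0.01. Its level was 36.8 times that of Krt19 in the Alb-Cre library and 58.9 times in the control library. Beside the even Spp1 value stand macrophage markers that were higher. Of 15 measured, 9 were called higher and 0 lower, against 3.75% and 1.83% of all measured genes. Their median ratio was 1.19, or 1.23 over the 13 with 1 FPKM or more in both libraries. The listed macrophage markers summed to 505 FPKM in the Alb-Cre library and 205 FPKM in the control library, and their part in the Spp1 level was not tested.

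In the order of levels, the Alb-Cre library had Krt18 above Krt8, then Spp1 and Krt23 close together at 30.5 and 28.1 FPKM, and then Sox9, Krt19, Krt7 and Epcam, all at 1.21 FPKM or less. The control library had Krt8 above Krt18, then Spp1, and then Sox9, Krt23, Epcam, Krt19 and Krt7, all at 1.66 FPKM or less. The position of the 8 genes among all measured genes places Krt23 apart from the others.

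**Figure D3:**
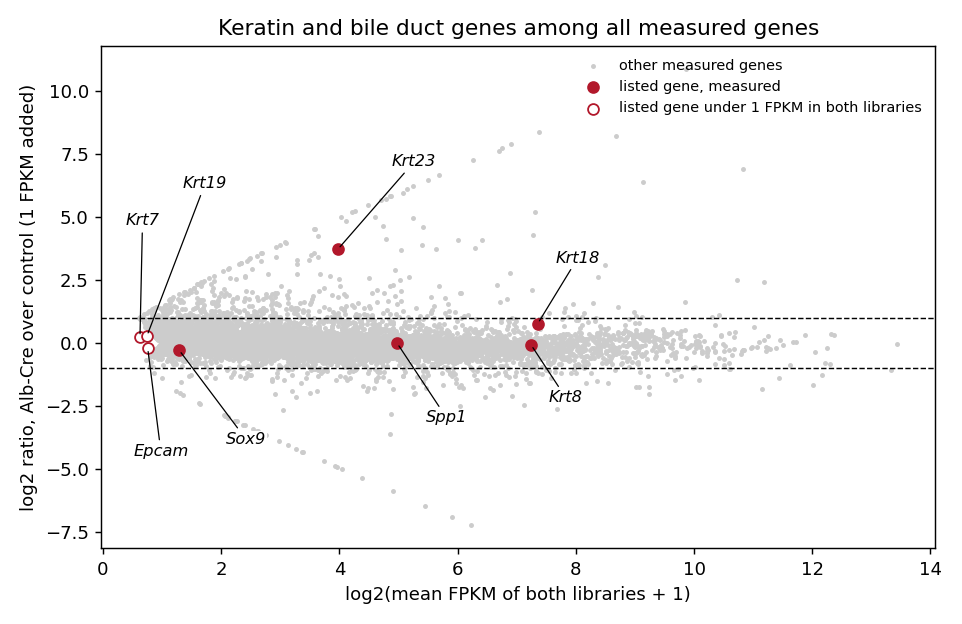
Log2 ratio of Alb-Cre over control (1 FPKM added) against log2 of the mean FPKM of both libraries plus 1, for each measured gene (grey) and the 8 genes (red, open where both values are under 1 FPKM); dashed lines mark 2-fold. Krt23 lies at 3.71, Krt18 at 0.76 and the other 6 between -0.27 and 0.27. The added 1 FPKM makes the ratios of the weak genes among these too small.

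Other genes of bile duct epithelium went both ways. Of 14 measured of 26 listed, 3 were called higher and 2 lower, against 3.75% and 1.83% of all measured genes. The median ratio was 0.00 beside -0.06 over all measured genes. Tff3, a trefoil peptide gene of mucous epithelia, had 1114 FPKM in the Alb-Cre library and 12.5 FPKM in the control library. Car2, a carbonic anhydrase gene, had 8.29 FPKM in the Alb-Cre library and 2.73 FPKM in the control library, and Cdh1, which encodes E-cadherin and is also made by hepatocytes, had 25.5 FPKM in the Alb-Cre library and 11.2 FPKM in the control library. The lower genes were Onecut1, a transcription factor gene of liver and bile duct development that hepatocytes also express, with 7.21 FPKM in the Alb-Cre library and 21.5 FPKM in the control library, and Slc10a2, the apical bile acid uptake transporter gene, with 6.19 FPKM in the Alb-Cre library and 16.7 FPKM in the control library. Genes that define bile duct cells more closely were near 0 in both: the chloride channel gene Cftr had 0.0235 FPKM in the Alb-Cre library and 0.0249 FPKM in the control library, and the secretin receptor gene Sctr had 0.0283 FPKM in the Alb-Cre library and 0.0274 FPKM in the control library. The summed level of the list was 1297 FPKM in the Alb-Cre library and 194 FPKM in the control library, and without Tff3 it was 184 FPKM in the Alb-Cre library and 181 FPKM in the control library. With 5 FPKM added to each value, 1 gene of the list was called higher and 1 lower.

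Several genes described in liver progenitors and the ductular reaction were higher, mostly from low levels. Of 12 measured of 20 listed, 5 were called higher and 0 lower, against 3.75% and 1.83% of all measured genes. The median ratio was 0.92 beside -0.06 over all measured genes. Lcn2, the lipocalin-2 gene and also an acute phase gene of hepatocytes, had 26.3 FPKM in the Alb-Cre library and 3.65 FPKM in the control library. The RNA-binding protein gene Igf2bp3 had 3.30 FPKM in the Alb-Cre library and 0.105 FPKM in the control library. Bex2 had 3.06 FPKM in the Alb-Cre library and 0.0938 FPKM in the control library. Afp, the fetal plasma protein gene of hepatoblasts, had 4.70 FPKM in the Alb-Cre library and 0.879 FPKM in the control library. The hyaluronan and osteopontin receptor gene Cd44 had 4.36 FPKM in the Alb-Cre library and 1.45 FPKM in the control library. Of the 12 measured genes 4 passed the minimum only through the Alb-Cre library, among them Igf2bp3, Bex2 and Afp; that minimum favours a positive ratio. The 8 that reached 1 FPKM in each library had a median ratio of 0.51, beside -0.08 over all genes that did so. With 5 FPKM added, or with a minimum of 5 FPKM, 1 of the genes was called higher.

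Most measured genes of the pathways that act on bile duct fate stayed under 2-fold with 1 FPKM added. Of 22 Notch pathway genes 12 were measured and 0 were called, with a median ratio of 0.02, or -0.07 over the 9 with 1 FPKM or more in both libraries. Lfng, a glycosyltransferase gene that modifies Notch, had 2.88 FPKM in the Alb-Cre library and 1.58 FPKM in the control library. The feedback inhibitor gene Nrarp had 1.31 FPKM in the Alb-Cre library and 0.621 FPKM in the control library. Nrarp was thus 2.11-fold higher on the plain scale, at a level where the added 1 FPKM makes the ratio too small. Of 20 genes of the Hippo pathway and its effector YAP, 17 were measured, 1 was called higher and 0 lower. The shares over all measured genes were 3.75% higher and 1.83% lower, and the median ratio of the 17 was -0.05. The called gene was Ctgf, a matricellular YAP target, with 7.29 FPKM in the Alb-Cre library and 2.43 FPKM in the control library. With 5 FPKM added it was not called. Of 10 relatives of Sox9 in its family, 5 were measured and 0 called, with a median ratio of -0.21 and the largest ratios at -0.32 for Sox13 and -0.23 for Sox5.

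Among measured partners of the keratins and of the surface and secreted proteins, Cd44 alone passed 2-fold with 1 FPKM added. Among 15 measured of 19 genes of keratin anchors, desmosomes and other intermediate filaments 0 were called, with a median ratio of 0.07. Vim, the mesenchymal filament gene vimentin, had 16.1 FPKM in the Alb-Cre library and 7.96 FPKM in the control library (ratio 0.93), and passed 2-fold with 0.1 FPKM added, with centring and with libraries rescaled to the same sum. Dsp, the desmosomal linker desmoplakin, had 6.33 FPKM in the Alb-Cre library and 10.03 FPKM in the control library (ratio -0.59). Of 12 genes linked to keratin aggregates, the Mallory-Denk bodies of injured hepatocytes, 11 were measured and 0 called, with a median ratio of 0.20. Farthest out were the heat shock protein genes Hspb1 at 0.84 and Hspa1b at -0.46. Of 14 osteopontin receptor and related genes 9 were measured and Cd44 was the 1 called higher, against 3.75% of all measured genes. The median ratio was 0.38, but 3 of the 9 passed the minimum only through the Alb-Cre library, and over the 6 with 1 FPKM or more in both libraries it was -0.04. Of 13 partners and proteases of Epcam 8 were measured and 0 called, with a median ratio of -0.11, the tetraspanin genes Cd9 at 0.67 and Cd81 at -0.21 having the largest ratios in size.

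**Figure D4:**
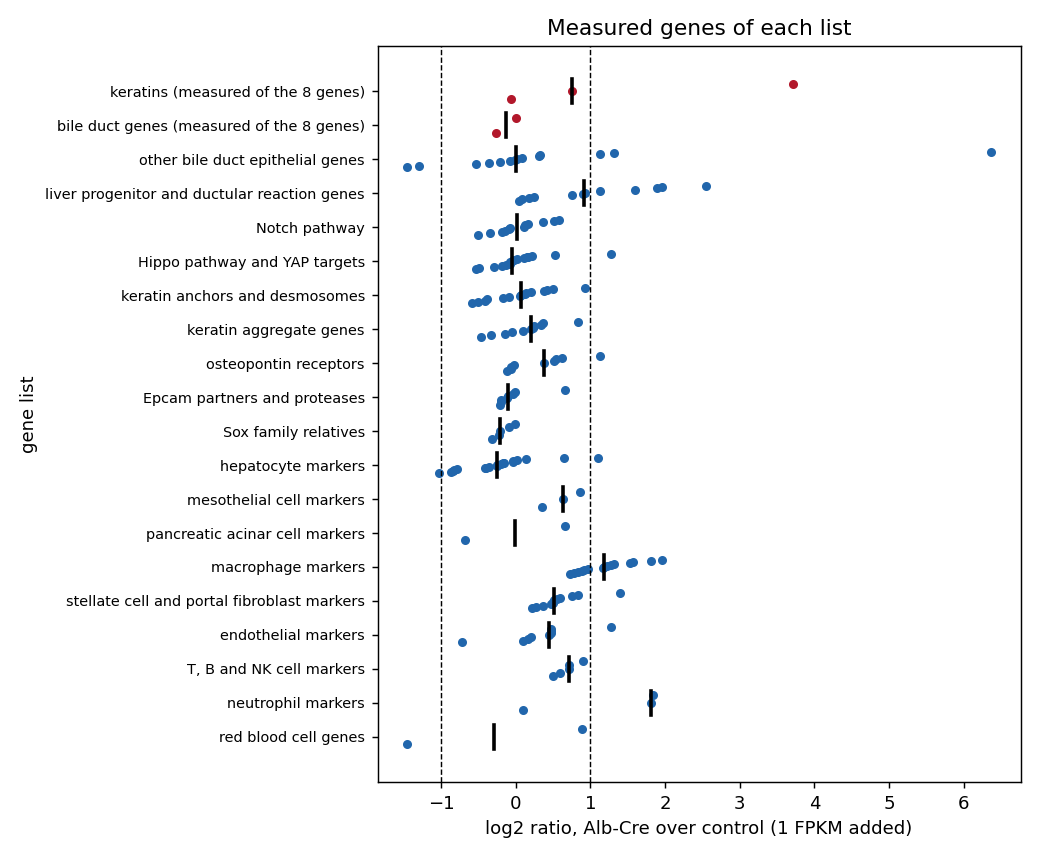
Log2 ratio of Alb-Cre over control (1 FPKM added) of every measured gene in each list, with 1 point per gene, a black bar at the list's median and dashed lines at 2-fold. Notch, Hippo and keratin anchor genes centre near 0, at medians of 0.02, -0.05 and 0.07, and macrophage markers at 1.19.

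Marker lists of cell types were summed as the setting of these values. Over all measured genes 3.75% were called higher and 1.83% lower. Hepatocyte markers had a median ratio of -0.24 over 19 measured genes, with 1 called higher and 1 lower. Of the 20 listed hepatocyte markers, 1 was set aside for its status. The most abundant of the 19, Ttr, the transthyretin gene, had 3627 FPKM in the Alb-Cre library and 6489 FPKM in the control library. Apoc3 and Fgb followed. Stellate cell and portal fibroblast markers, led by Dcn, Reln and Lrat, summed to 199 FPKM in the Alb-Cre library and 116 FPKM in the control library, with 1 of 12 called higher and a median ratio of 0.51, or 0.50 over the 9 with 1 FPKM or more in both libraries. Endothelial markers, led by Clec4g, Fcgr2b and Kdr, summed to 138 FPKM in the Alb-Cre library and 105 FPKM in the control library, with a median of 0.44 and 1 of 9 called higher. These non-epithelial lists thus lay above the median of all measured genes, as the macrophage list did, which Cd5l, Lyz2 and C1qb led. Neutrophil markers, led by S100a8, S100a9 and Cxcr2, summed to 21.3 FPKM in the Alb-Cre library and 5.27 FPKM in the control library, with 2 of 3 called higher. T, B and NK cell markers, led by Nkg7, Cd79b and Cd79a, summed to 12.0 FPKM in the Alb-Cre library and 5.05 FPKM in the control library, with 0 of 5 measured genes called; all 5 passed the minimum only through the Alb-Cre library, so their ratios had to be positive. The 3 measured mesothelial markers, Upk3b, Msln and Gpm6a, also passed only through the Alb-Cre library, and no median is given for them. Pancreatic acinar markers, led by Cela1, Cela2a and Ctrb1, had 0 of 2 called. Red blood cell genes, led by Alas2, Hbb-b2 and Hba-a2, summed to 45.6 FPKM in the Alb-Cre library and 118 FPKM in the control library, with 1 of 2 called lower. The part of these cell types in the values of the 8 genes was not tested.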

How the data were processed

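Each library was 1 pool of messenger RNA from 4 livers, per the labels. FastQC, TopHat2 2.0.8, Cuffdiff 2.1.1 and mm10 are named in the submitters' processing notes, with no role or order; settings, annotation and strandedness are not given in the sources used. The authors deposited FPKM values per gene and library, and the authors' p-value and q-value per gene, per the file headers.

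Of the rows, 14868 had status OK; 17 of HIDATA and 1 of FAIL were set aside. Log2 ratios used a pseudocount of 1 FPKM, a minimum of 1 FPKM in at least 1 library and a 2-fold limit over the whole table; the code for these calls was tested on simulated data, and no p-value was computed from the libraries. Table starts count from 0 and were moved to count from 1. The worth of 1 read was the median of FPKM times length between 0.005 and 0.0115, in genes of 1 to 5 kb with 1 GENCODE vM21 transcript (146 genes in the Alb-Cre library, 133 in the control library).

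The 8 genes and the 18 other lists were chosen with earlier results of these data known. Named genes are the 8, the measured keratins and the 3 genes nearest to Krt23. In each list that is no marker list they are those past 2-fold or else the 2 largest ratios. In each marker list they are the 3 most abundant of the rows not set aside. Krt10, Krt20, Cftr, Sctr, Eif4b and Spryd3 were named after their values were seen. Alternatives were pseudocounts of 0.1 and 5 FPKM, no minimum, minimums of 5 FPKM or on the mean, rescaling, centring, other row status, and limits of 1.5-fold and 4-fold; a minimum in both libraries, for list medians, was added after the values were seen. Python 3.11.15, pandas 2.3.3, numpy 2.4.6 and matplotlib 3.10.9 were used.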

Additional observations from a re-analysis of the deposited data

How the results depend on the processing

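Of the 8 genes 1, Krt23, was called higher and 0 lower under every alternative but the 1.5-fold limit, where 2 were called higher, Krt18 being the second; the count of measured keratins moved in the same way, to 2. The log2 ratio of Krt23 ranged from 2.41 with 5 FPKM added to 4.41 with 0.1 FPKM added. The median ratio of the measured genes among the 8 was 0.12 with no minimum, 0.38 with a minimum of 5 FPKM, 0.12 with libraries rescaled and 0.14 with centred ratios. Over all measured genes, the number called higher was 769 with 0.1 FPKM added, 178 with 5 FPKM added, 283 with a minimum of 5 FPKM, 1012 at 1.5-fold and 117 at 4-fold, and the number called lower was 661 at 1.5-fold and 45 at 4-fold; fewer or more genes pass such limits by construction. With a minimum of 1 FPKM in both libraries, an alternative chosen after the data were seen, the median ratio of the progenitor list was 0.51, that of the osteopontin receptors -0.04 and that of the Notch genes -0.07, and no mesothelial or T, B and NK cell marker was left. Of 432 comparisons with the other alternatives, over single genes, list counts and the overall median, 356 stayed within the stated range of 1.5 times for counts or 0.1 for log2 values, and 76 moved. That share is no measure of stability. The ratio of a single gene does not depend on the minimum or on the row status, so those comparisons could not move. Many list counts were also 0 under both settings. No paired analysis was possible because each genotype is 1 library, and for the same reason no library could be left out. Counting error is small for genes of many reads and larger for Krt7, Krt19 and Epcam, which lay under 1 FPKM. Krt19 had about 182 reads in the Alb-Cre library and 100 in the control library, and none were estimated for Krt7 and Epcam. The spread between mice is unknown for every gene, so small differences cannot be judged against it.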
